A study of Mus musculus with 2 samples.

Results

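Plasma cells of the colonic lamina propria are described here as they were caught in a flow cytometric sort of B cells from female C57BL/6J mice. The members were chosen by a readout: a cell counted as a plasma cell where immunoglobulin genes and Jchain made up 20% or more of its transcripts. By this rule 51 of 7982 cells were plasma cells, 24 of 3290 at day 0 and 27 of 4692 at day 14. The day 0 library came from mice without treatment. The day 14 library came from mice given 2% dextran sulfate sodium (DSS), a polysaccharide that injures the colonic epithelium, in their water for 7 days, with another 7 days to recover. Strain, sex, tissue and the B cell sort were shared by both groups, and the labels name no transgene or deleted gene. Both samples carry a treatment tag that reads DSS, and day 0 was taken as untreated from the protocol text and from the design. Each group was 1 library, and the sources used here do not give the number of mice pooled in it or the surface markers of the sort. No difference below therefore has a replicate check, no test was made between the days, and the 95% intervals in parentheses cover counting error only.

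A plasma cell is the end stage of B cell differentiation, a cell that has stopped presenting antigen and has turned its endoplasmic reticulum (ER) over to antibody secretion. In the gut most plasma cells make IgA, which Jchain joins into polymers that the epithelium carries into the lumen. The transcription factor Xbp1 enlarges the secretory machinery, Prdm1 and Irf4 hold the plasma cell programme in place, and Pax5 and Ebf1 hold that of the B cell.

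The name plasma cell was checked against markers that took no part in the choice. Of 12 plasma cell markers other than Jchain, a day 0 plasma cell held transcripts of 7 to 12 (median 9) and a day 14 plasma cell of 6 to 11 (median 10). Other cells held a median of 1 on both days, and 3 of 3266 and 3 of 4665 of them reached 6 markers. Plasma cells also held far more UMIs per cell, as given below, and the number of markers found was not adjusted for this. Mature B cell genes took a smaller share of the remaining transcripts in each of the 51 plasma cells than in the median other cell. T cell, myeloid, mast cell and erythroid markers were at 0 unique molecular identifiers (UMIs, each 1 captured transcript) in the plasma cells of both days. Of the 6 epithelial markers, Epcam had 25 UMIs at day 0 and 21 at day 14, Krt18 had 2 and 0, and Krt8, Krt19, Muc2 and Fabp2 were at 0. Of the stromal markers Pecam1 alone was found (6 and 9 UMIs), and of the natural killer markers Gzma alone (4 and 3 UMIs).

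Plasma cells were few and rich in RNA. They were 0.729% (0.468 to 1.08) of day 0 cells and 0.575% (0.380 to 0.836) of day 14 cells, a difference that was not tested, and the gate sets which of them enter the sort. They nonetheless held 73.9% of all immunoglobulin UMIs of the day 0 library and 64.3% of those at day 14. A plasma cell held 2863 to 26917 UMIs at day 0 (median 18974) and 10573 to 24394 at day 14 (median 14833). The median other cell held 2274 and 2237 UMIs. Plasma cells also showed more genes per cell, with medians of 2017 and 2030 against 894 and 857. The mitochondrial share of all their UMIs was lower, with medians of 1.29% and 1.37% against 3.12% and 3.37%. That total includes the immunoglobulin UMIs by which the rule chose the cells, which lowers every other share. A mitochondrial share without immunoglobulin was not compared. Of the cell barcodes, 18 occurred in both libraries, and none of them belonged to a plasma cell.

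The immunoglobulin share that chose the cells spread differently on the days. At day 0 it ran from 31.1% to 73.8% with a median of 65.4%, and 22 of 24 plasma cells lay at 50% or more. At day 14 it ran from 24.3% to 79.9% with a median of 46.1%, and 10 of 27 lay at 50% or more. The ranges overlapped, and the day 14 range was the wider one at both ends. Among IgA cells alone the medians were 65.5% and 46.9%. Without immunoglobulin and mitochondrial genes the median plasma cell still held 6152 UMIs at day 0 and 7429 at day 14, so the levels below rest on more transcripts per cell at day 14.

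The threshold fell in a sparse stretch of the range. The lowest plasma cells stood at 31.1% at day 0 and 24.3% at day 14, and the highest other cells at 19.4% and 19.2%. Only 2 other cells at day 0 and 3 at day 14 lay between 10% and 20%. These 5 cells held 8 to 11 of the 12 plasma cell markers and 11826 to 21187 UMIs. The rule counts them among the other cells, so the levels of other cells below include them. Below 5% lay 3264 of the day 0 cells and 4661 of the day 14 cells.

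**Figure D1:**
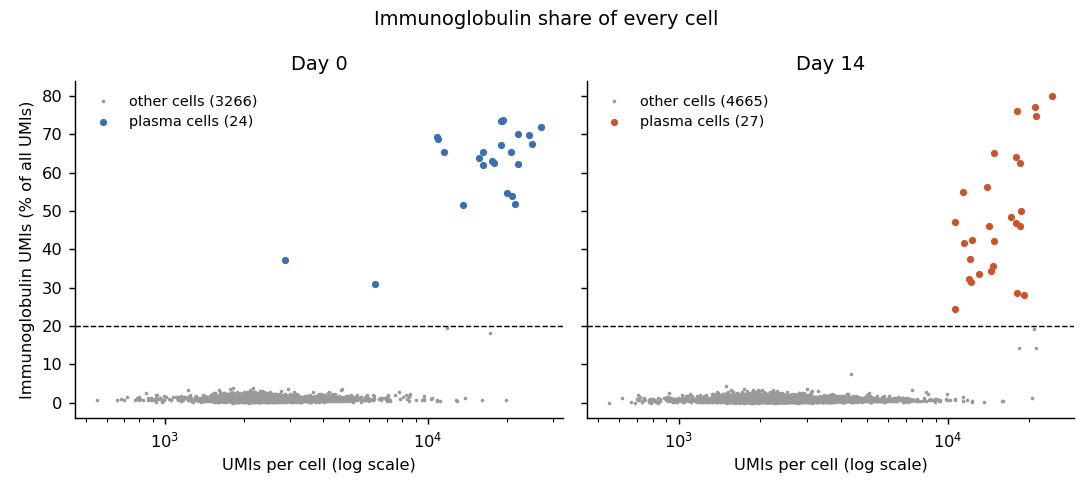
Immunoglobulin share of each cell's UMIs (percent, y axis) against its total UMIs (log axis) for both libraries, with the 20% threshold as a line. Plasma cells lie between 31.1% and 73.8% at day 0 and between 24.3% and 79.9% at day 14, with 5 other cells between 10% and 20%.

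Sorted by heavy chain, most plasma cells on both days made IgA. A class was given to a cell with at least 10 UMIs of 1 constant gene that were over 50% of its heavy chain constant UMIs. IgA cells were 22 of 24 at day 0 (91.7%, 73.0 to 99.0) and 19 of 27 at day 14 (70.4%, 49.8 to 86.2). IgM cells numbered 1 and 2. IgG cells numbered 1 of 24 at day 0 (4.17%, 0.105 to 21.1), of the IgG2b class, and 5 of 27 at day 14 (18.5%, 6.30 to 38.1). The 5 comprised 2 IgG1, 2 IgG2b and 1 IgG3 cell. The intervals of the IgA and the IgG share overlap between the days, and the difference was not tested. The class was clear-cut, with over 95% of the heavy chain constant UMIs from 1 gene in 24 of 24 and 26 of 27 plasma cells. The exception at day 14 had 12 such UMIs in all, 8 of Igha and 4 of Ighm, and got no class.

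The few IgG cells differed widely in immunoglobulin output. The IgG2b cell of day 0 had an immunoglobulin share of 31.1%. At day 14 the IgG3 cell had 79.9%, the highest of all, the IgG2b cells 47.2% and 42.2%, and the IgG1 cells 41.6% and 31.5%. Light chains were mostly kappa: lambda genes led in 1 of 24 plasma cells at day 0 and in 3 of 27 at day 14. Of these 3, the cell without a heavy chain class was mixed, with 824 kappa and 1500 lambda UMIs. Jchain, which encodes the chain that links IgA and IgM into polymers (chromosome 5, 88519809 to 88527891, mm10), made up a median of 11.6% of immunoglobulin UMIs at day 0 and 10.1% at day 14. Its lowest values were in IgG cells, 0.613% in the IgG2b cell of day 0 and 1.65% in the IgG3 cell of day 14.

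**Figure D2:**
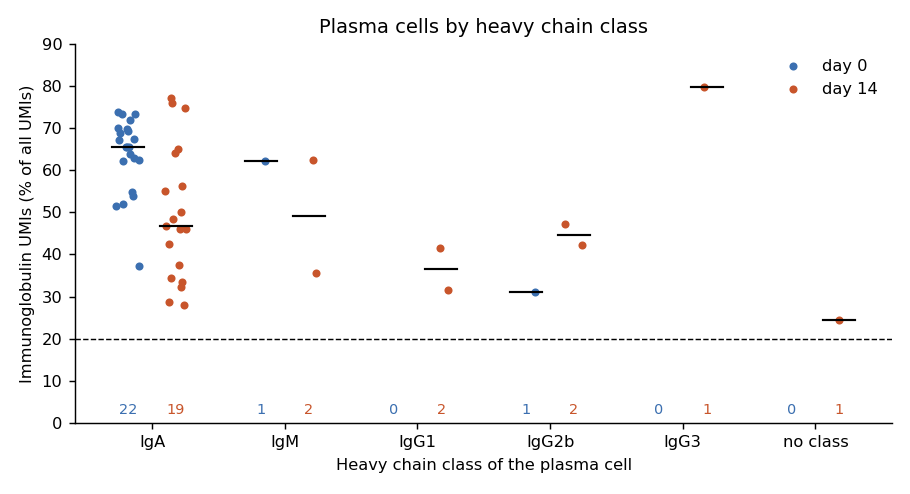
Immunoglobulin share (percent of UMIs, y axis) of plasma cells by heavy chain class (x axis) and day, with each dot 1 cell, the dashed line at the 20% threshold, lines at the medians and the number of cells printed under each class. IgA cells are 22 of 24 at day 0 and 19 of 27 at day 14, and IgG cells are 1 and 5.

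Variable genes were sparsely read by this 3′ assay. At least 3 UMIs of a heavy chain variable gene were found in 17 of 24 plasma cells at day 0, which used 14 genes, and in 10 of 27 at day 14, which used 7. Ighv3-6 led in 4 of those 10. The median plasma cell held 4 such UMIs at day 0 and 1 at day 14. The highest held 138, of Ighv2-5, at day 14. Variable genes are near-identical families, so the assignment of a read to 1 of them is uncertain.

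Immunoglobulin transcripts also turned up outside plasma cells. Among other cells, 36.8% at day 0 and 13.5% at day 14 held at least 1 UMI of Igha, and 13.7% and 4.54% at least 1 of Jchain. In the same cells Tnfrsf17, a survival receptor of plasma cells, was found in 0.0612% and 0.0429%. Per UMI of Jchain there were 2.16 UMIs of Igha in plasma cells at day 0 and 2.49 in other cells, and 1.75 against 2.74 at day 14. The other cells here include the cells described above that lay nearest under the threshold. At day 0 these held 185 and 307 of the 1232 Jchain UMIs of other cells. At day 14 they held 199, 302 and 161 of the 1051. The Jchain counts behind the ratios of other cells thus came in large part from these cells, and the ratios without them were not computed. RNA free in the droplets was not taken off the levels in either kind of cell.

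At 2 cells the label is less sure. The day 0 plasma cell with the lowest immunoglobulin share (31.1%) held 71 of the 74 Apoe UMIs of all day 0 plasma cells, and the day 14 cell with the lowest share (24.3%) held 222 of 225. Apoe encodes a lipid carrier best known from myeloid cells, and was chosen here after its values were seen. The day 14 cell is the one without a class, and its light chain UMIs were mixed, 824 of kappa and 1500 of lambda (64.5% lambda). Both cells had no UMI of Sdc1, and held 124 and 177 UMIs of Cd74 against medians of 75 and 50 over plasma cells. Their mature B cell genes took 5.91% and 5.25% of transcripts other than immunoglobulin and mitochondrial ones, against medians of 1.95% and 1.28% over plasma cells. Both held markers of the plasma cell list, 7 and 6 of 12. Whether another cell shared their droplets was not tested.

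Set beside the other sorted B cells, plasma cells were higher in the genes of the secretory route and in their own surface receptors and lower in antigen presentation. The rule chose the cells by their transcripts, so this comparison describes them and tests nothing. Levels are CPM, the UMIs of a gene summed over cells of a library, per 1000000 UMIs other than those of immunoglobulin and mitochondrial genes. Of 1304 genes with a mean of at least 100 CPM, 328 (25.2%) were at least 2-fold higher in plasma cells on both days and 117 (8.97%) at least 2-fold lower. The median gene stood at a log2 ratio of 0.40 at day 0 and 0.29 at day 14. Of the 328, 124 passed the filter on the level in other cells alone, and 36 of the 117 on the level in plasma cells alone. The split depends on the scaling. It was 233 higher and 233 lower with TMM factors, 246 and 211 with median-of-ratios factors, and 69 and 378 where immunoglobulin UMIs stay in the total. Under these scalings the median log2 ratio of the genes measured shifts by -0.56, -0.48 and -1.77 at day 0. At day 14 it shifts by -0.41, -0.33 and -1.20. The filter was applied anew under each scaling, so these shifts also hold a change in which genes were measured.

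Several receptor and secreted protein genes were far higher in plasma cells than in other cells. Tnfrsf17 (BCMA, chromosome 16, 11313812 to 11320074), the receptor through which plasma cells take up the survival factors APRIL and BAFF, was at 715 and 487 CPM in plasma cells and at 0.505 and 0.264 CPM in other cells. The ratio was 1414-fold (536 to 5288) at day 0 and 1847-fold (614 to 9111) at day 14. Ccr10 (chromosome 11, 101172997 to 101175443), the receptor for mucosal chemokines that guides IgA cells, was at 680 and 551 CPM against 1.14 and 0.791 CPM. The costimulatory receptor gene Cd28 was at 333 and 167 CPM against 0.379 and 0.616 CPM. Slpi, which encodes a secreted antimicrobial protease inhibitor, was at 2116 and 4736 CPM against 1.26 and 11.4 CPM. Prg2, which encodes the major basic protein known from eosinophils, was at 284 and 231 CPM against 0.379 and 0.088 CPM. Sdc1 (CD138), the proteoglycan by which plasma cells are usually sorted, was at 1048 and 502 CPM against 19.8 and 11.3 CPM. Of 25 listed surface and survival receptors, 13 were measured and 11 of them were higher, among them Tnfrsf13b, Slamf7 and Bst2. None was lower, against 25.2% of all genes higher and 8.97% lower. Genes such as Tnfrsf17 and Cd28 passed the filter on their plasma cell level alone, which largely set their place among the higher genes.

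These receptors were not evenly spread over plasma cells. Tnfrsf17 was found in 22 of 24 plasma cells at day 0 and in 22 of 27 at day 14, with medians of 578 and 270 CPM and highest values of 1786 and 1651 CPM. Ccr10 was found in 19 of 24 and 22 of 27, with medians of 540 and 505 CPM. Slpi was uneven, with 17 of 24 cells and a median of 800 CPM at day 0, but 12 of 27 cells, a median of 0 and a highest value of 59028 CPM at day 14. Cells without a UMI occurred on both days for each of the 3 genes, and the days overlapped.

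Other genes with high ratios belonged to several families. Mt2 and Mt1, metal-binding metallothioneins, were at 1346 and 202 CPM and at 1887 and 758 CPM in plasma cells, against 2.15 and 2.20 CPM and 17.3 and 14.1 CPM in other cells. Tmem176a and Tmem176b, neighbouring genes for membrane proteins, were at 2102 and 458 CPM and at 2719 and 601 CPM against at most 3.61 CPM. Cxcl10, an interferon-induced chemokine gene, was at 791 and 88.6 CPM against 1.14 and 0.704 CPM. Ly6c2 was at 3843 and 1221 CPM against 14.0 and 1.76 CPM, and Ccrl2, a decoy chemokine receptor gene, at 354 and 113 CPM against 0.758 and 1.41 CPM. Ly6c2 has close copies that can share its reads. Fam46c, a poly(A) polymerase gene of the plasma cell lineage, was at 583 and 433 CPM against 8.84 and 7.04 CPM.

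Among transcription factors Xbp1 was high in plasma cells and the factors of B cells were low. Xbp1 was at 2150 CPM (633 to 6505 over cells) at day 0 and 2442 CPM (352 to 14237) at day 14, against 68.9 and 66.7 CPM in other cells, and every plasma cell held it. Of the 17 listed plasma cell factors 5 were measured: Xbp1, the elongation factor gene Ell2 and the coactivator gene Pou2af1 were higher, Pou2f2 lower. Prdm1 was at 2 UMIs in 24 cells and 8 UMIs in 27, or 13.9 and 39.4 CPM, against 1.14 and 1.06 CPM. Irf4 was at 139 and 34.5 CPM against 37.8 and 32.4 CPM. Both lay under the filter. Of the 8 measured B cell factors of 19 listed, 5 were lower and none higher, against 8.97% of all genes lower and 25.2% higher. Ebf1 was at 69.4 and 49.2 CPM against 1479 and 1506 CPM, and 10 UMIs of it were found on each day. Pax5 had 0 and 1 UMIs, against 116 and 114 CPM in other cells.

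The ER secretory route was higher in nearly all its measured members. Of 146 genes in 5 lists, 92 were measured, 82 of them were higher and none lower, with median log2 ratios of 2.39 at day 0 and 2.70 at day 14. Since 25.2% of all genes were higher and the rule had chosen cells by their secretory product, the count is a description. In ER import, the translocon, signal recognition and signal peptidase genes, 18 of 21 measured genes were higher, among them Sec61b, Ssr4 and Spcs2. Of chaperones and folding enzymes 23 of 25 were higher, of N-glycosylation 12 of 14, of ER-associated degradation 15 of 15 and of ER to Golgi transport 16 of 19. Derl3, a subunit of the channel that returns misfolded protein to the cytosol, was at 458 and 556 CPM against 3.28 and 4.22 CPM in other cells. Edem2, a mannosidase-like factor that marks glycoproteins for this path, was at 1145 and 896 CPM against 18.6 and 16.5 CPM, and every plasma cell held it. Hspa5 (BiP), the main ER chaperone, was at 4516 and 3106 CPM against 495 and 480 CPM. Its partner Hsp90b1 (GRP94) was at 4828 and 8369 CPM against 273 and 278 CPM.

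Many ER genes are known to be switched on through the ER stress response element (ERSE), which ATF6 and XBP1 recognise together with NF-Y. Both strands of RefSeq promoters (250 bases before to 50 after each start, GRCm38.p6) were searched for its letters, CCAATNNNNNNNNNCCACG, and no other motif was searched. They were found in 39 of 32851 promoters (0.119%). Of the 161 genes listed for the secretory route and the unfolded protein response, 131 had a promoter in the table. The element was found in 9 of these. The levels of 8 of the 9 were measured (Syvn1 lay under the filter), and each of the 8 was higher in plasma cells on both days. So were 82 of the 92 measured secretory route genes, with or without the element, and 25.2% of all genes. Whether the element goes with a higher level was not tested. The windows below show the element in the 8 genes, where it stands in both orientations. Each runs 5′ to 3′ along the gene, with the match in capitals and 20 bases on each side. A match describes the letters and is not a measured binding site.
Canx, ERSE, chr11:50325780-50325838, − strand: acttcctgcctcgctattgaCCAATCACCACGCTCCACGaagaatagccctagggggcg
Dnajc3, ERSE, chr14:118937807-118937865, + strand: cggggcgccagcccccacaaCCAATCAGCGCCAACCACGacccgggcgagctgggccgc
Hspa5, ERSE, chr2:34772005-34772063, + strand: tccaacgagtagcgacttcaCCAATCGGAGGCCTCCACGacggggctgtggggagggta
Hsp90b1, ERSE, chr10:86705618-86705676, − strand: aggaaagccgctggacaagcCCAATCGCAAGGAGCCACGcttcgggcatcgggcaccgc
Hsp90b1, ERSE reversed, chr10:86705513-86705571, − strand: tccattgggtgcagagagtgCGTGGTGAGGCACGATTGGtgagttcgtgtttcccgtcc
Derl3, ERSE reversed, chr10:75893222-75893280, + strand: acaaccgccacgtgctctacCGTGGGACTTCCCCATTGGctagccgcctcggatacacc
Calr, ERSE reversed, chr8:84847055-84847113, − strand: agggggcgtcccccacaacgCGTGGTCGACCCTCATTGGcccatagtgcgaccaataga
Creld2, ERSE reversed, chr15:88819500-88819558, + strand: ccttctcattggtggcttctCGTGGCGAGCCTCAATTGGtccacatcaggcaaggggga
Pdia6, ERSE, chr12:17266471-17266529, + strand: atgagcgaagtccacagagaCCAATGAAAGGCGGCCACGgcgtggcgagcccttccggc

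The 8 genes differed widely in how far plasma cells exceeded the others. Derl3 was 139-fold (87.3 to 229) higher at day 0 and 132-fold (93.2 to 189) at day 14. Creld2, a secreted ER stress protein gene, was 23.7-fold (18.5 to 30.2) and 31.7-fold (26.4 to 37.9) higher. Hsp90b1, with an element in each orientation, was 17.7-fold (16.2 to 19.3) and 30.1-fold (28.3 to 31.9) higher. Dnajc3, whose product curbs PERK and serves Hspa5 as a cochaperone, was 17.99-fold (14.4 to 22.3) and 18.7-fold (15.8 to 22.1) higher, and Canx, the calnexin gene, 2.22-fold (1.63 to 2.96) and 2.23-fold (1.72 to 2.85). Pdia6, a disulfide isomerase gene, was 10.4-fold (8.92 to 11.98) and 10.6-fold (9.34 to 11.96) higher, and Hspa5 9.12-fold (8.38 to 9.92) and 6.48-fold (5.96 to 7.03). Calr, the lectin chaperone calreticulin gene, was 5.07-fold (4.47 to 5.74) and 5.61-fold (5.09 to 6.17) higher. Derl3 stood highest and Canx lowest of the 8 on both days, and intervals of several neighbours between them overlapped.

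Antigen presentation was low in plasma cells. All 9 measured genes of the MHC class II list were at least 2-fold lower, against 8.97% of all genes. Their median log2 ratios were -2.98 at day 0 and -3.12 at day 14. H2-Aa, a class II chain gene, was at 597 and 305 CPM against 7032 and 6394 CPM in other cells. Cd74, the invariant chain gene, was still at 13118 and 6735 CPM against 28344 and 27043 CPM, and every plasma cell held it. Of 23 measured mature B cell genes 16 were lower and none higher, against 8.97% of all genes lower and 25.2% higher. Some of them, such as Cd72, Fcer2a and Fcmr, passed the filter on their level in other cells alone, which largely set their place among the lower genes. Cd72, Fcer2a and Serpinb1a had no UMI in any plasma cell, which sets them at least 14.0-fold, 15.01-fold and 11.3-fold lower at day 0 against a floor of 3 UMIs per library. Fcmr, the IgM receptor gene, had 1 UMI on each day, at 6.94 and 4.92 CPM against 559 and 431 CPM, or 80.6-fold (14.5 to 3184) and 87.5-fold (15.7 to 3458) lower. Ccr7, the chemokine receptor that guides lymphocytes into lymphoid organs, had 7 and 3 UMIs, at 48.6 and 14.8 CPM against 950 and 722 CPM. Cd79a, part of the B cell receptor, was at 1048 and 955 CPM against 2198 and 2249 CPM.

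Of 82 measured ribosomal protein genes 2 were higher and 3 lower, with medians of -0.92 and -0.46 (log2), below the median of all genes on both days. Of 65 measured nuclear genes of the respiratory chain 24 were higher, against 25.2% of all genes, and 1 lower, with medians of 0.87 and 0.96. The respiratory median turned negative where immunoglobulin UMIs stayed in the total, at -0.59 and -0.04.

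**Figure D3:**
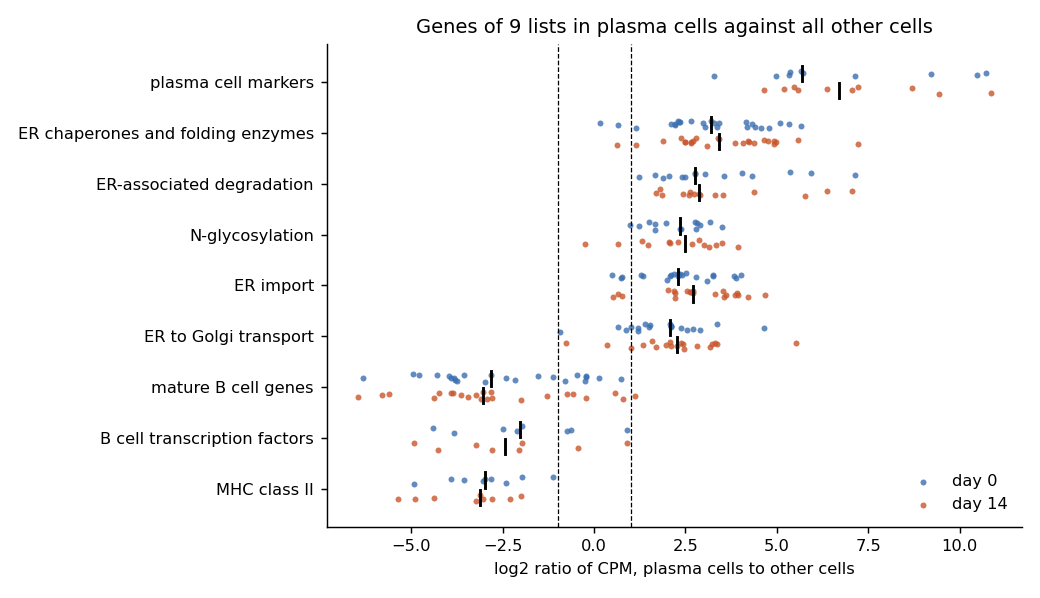
Log2 ratio of plasma cells to other cells (x axis) for measured genes of 9 lists (rows), with each dot 1 gene at day 0 or day 14, black ticks at list medians and dashed lines at 2-fold. The secretory lists lie above 0 for most genes (82 of 92 over the upper line on both days) and all 9 MHC class II genes lie under the lower line.

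Between the days, plasma cells at day 14 were lower in 13 of 17 immediate early genes and in the metallothionein genes Mt1 and Mt2. Mzb1, Fkbp11 and Ssr2, genes of ER folding and import, were higher in sum, but under 2-fold among cells at 50% immunoglobulin or more. Of 2262 genes with at least 20 UMIs over plasma cells of both days, 116 (5.13%) were at least 2-fold higher at day 14 and 232 (10.3%) at least 2-fold lower, with a median log2 ratio of -0.05. In other cells 6 of the same genes (0.265%) were higher and 21 (0.928%) lower, of which 2 and 13 were also higher or lower in plasma cells. The plasma cell sums rest on 144153 and 203124 UMIs and those of other cells on 7915718 and 11371461, and the part of this gap in the counts was not tested. Scaling moves the split here too. It was 166 higher and 182 lower with TMM factors, 226 and 146 with median-of-ratios factors, and 423 and 89 where immunoglobulin UMIs stay in the total, with shifts of the median gene by 0.11, 0.23 and 0.48 (log2). The share of immunoglobulin per cell, lower at day 14, moved with the genes higher at day 14, and its part was not tested. Among cells at 50% or more on both days 55 genes (3.85% of those measured) were higher and 163 (11.4%) lower. Of the 116 and the 232, 13 and 93 were among them.

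Mzb1, an ER cochaperone that helps assemble IgM and secrete IgA, was found in every plasma cell. A day 0 cell held 617 to 11272 CPM (median 3595) and a day 14 cell 888 to 22610 CPM (median 9620). The summed level was 2.42-fold (2.21 to 2.65) higher at day 14, while other cells stood at 0.930-fold. Fkbp11, an ER prolyl isomerase gene (chromosome 15, 98724366 to 98728198), went from 36 UMIs in 13 of 24 cells to 172 UMIs in 24 of 27. Its per-cell medians were 267 and 734 CPM and its highest values 724 and 2287 CPM, and the sum was 3.39-fold (2.36 to 5.001) higher. Ssr2, a subunit of the translocon-associated complex, had medians of 483 and 1346 CPM and highest values of 946 and 2511 CPM, and was 2.73-fold (2.11 to 3.56) higher. For all 3 genes the median of day 14 lay above that of day 0 and the ranges overlapped. Among cells at 50% immunoglobulin or more the log2 ratios were 0.89 for Mzb1, 0.57 for Fkbp11 and 0.76 for Ssr2, under 2-fold in each case.

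Few other genes of the secretory route moved by 2-fold. Of its 126 genes measured by day 9 were higher, a share close to the background of 5.13%, and 2 were lower, with 84 above 1. The median log2 ratio was 0.26 in plasma cells and -0.04 in other cells. Besides Mzb1, Fkbp11 and Ssr2 the 9 were Srp19, Srprb, Txndc11, Erp29, Ganab and Sec13, and the lower ones Stt3b and Cnih4. Hsp90b1 was 1.73-fold (1.59 to 1.90) higher, while Hspa5 stood at 0.688 (0.616 to 0.769) of its day 0 level and Derl3 at 1.22 (0.889 to 1.67). Xbp1 stood at 1.14 (0.983 to 1.31). The genes with an ERSE thus did not share a direction between the days. Ribosomal protein genes stood above 1 in 80 of 84, with 1 over 2-fold and a median log2 ratio of 0.58 in plasma cells against 0.11 in other cells.

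Slpi, named above, was higher in sum but not in most cells. Its 305 UMIs at day 0 came from 17 of 24 cells and its 962 at day 14 from 12 of 27, with 476 in 1 IgG1 cell. The ratio of sums was 2.24 (1.97 to 2.55), and 1.66 without the top cell of each day. In other cells Slpi was 9.05-fold (4.77 to 19.3) higher, from 1.26 to 11.4 CPM, but 108 of its 130 day 14 UMIs lay in 1 cell. Without the top cell of each day 4 and 22 UMIs were left, a ratio of 3.83 (1.30 to 15.3). Noa1, a mitochondrial ribosome factor gene, had 2 UMIs at day 0 and 94 at day 14, of which 91 lay in the Apoe-rich cell. Gmfg, a gene of actin branching, had no UMI at day 0 and 27 in 14 of 27 cells at day 14, or at least 6.39-fold more against a floor of 3 UMIs, and other cells stood at 0.913-fold. Ptprcap, which encodes a CD45-associated protein, was 3.17-fold (1.91 to 5.53) higher and Aimp1, a tRNA synthetase cofactor gene, 4.49-fold (1.89 to 13.01).

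**Figure D4:**
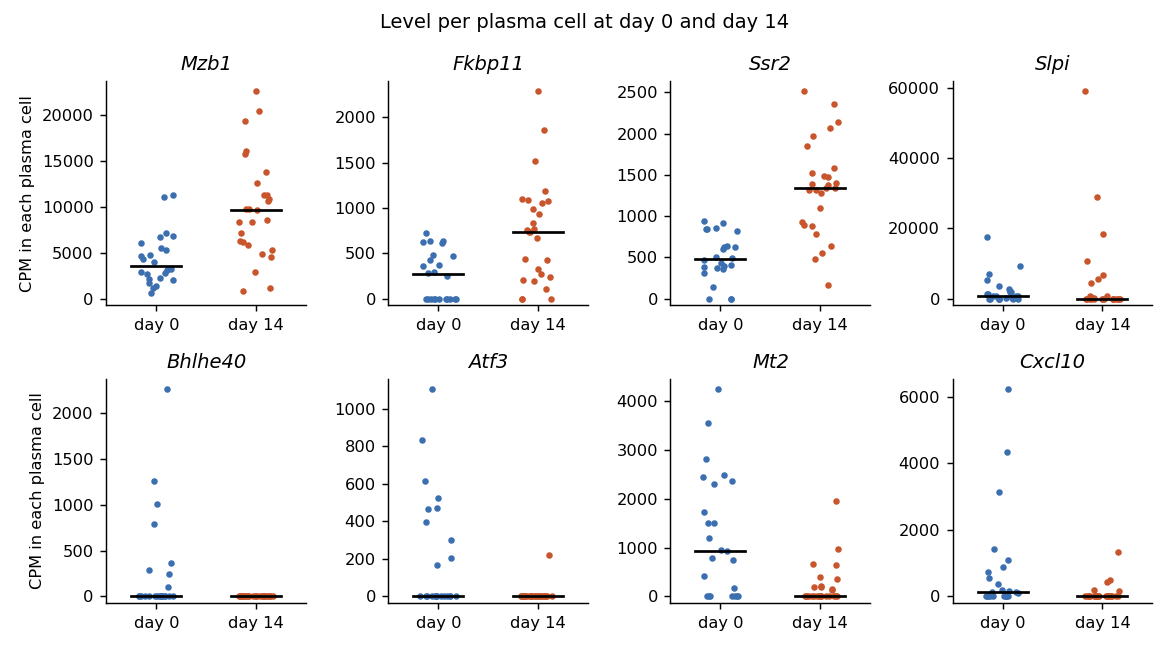
Level per plasma cell (CPM, y axis) of 8 genes at day 0 and day 14, with each dot 1 cell and lines at the medians. Mzb1, Fkbp11 and Ssr2 have higher medians at day 14, the Slpi, Mt2 and Cxcl10 medians are 0 at day 14, and no day 14 cell holds Bhlhe40.

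Immediate early genes, which respond to stimulation without new protein synthesis, were lower at day 14 in 13 of 17 measured genes, against a background of 10.3%, and none was higher. Their median log2 ratio was -1.47 in plasma cells and -0.31 in other cells, and it stayed negative under each scaling tried. Atf3, a stress-induced repressor gene, went from 28 UMIs in 10 of 24 cells to 1 UMI in 27 cells, a ratio of 39.5-fold (6.52 to 1613) lower. Junb, an AP-1 subunit gene, went from 88 UMIs to 26, or 4.77-fold (3.05 to 7.70) lower, while other cells were at 0.787 of their day 0 level. Dusp1, a phosphatase gene of the same response, was 5.44-fold (2.31 to 14.8) lower. Cd69, an activation and retention receptor gene, was at 1018 CPM in the median day 0 cell and 214 CPM in the median day 14 cell, and 5.12-fold (3.75 to 7.10) lower in sum against 0.925 in other cells. Bhlhe40, a transcriptional repressor gene (chromosome 6, 108660629 to 108666925), had 37 UMIs in 8 of 24 cells at day 0 and none at day 14, at least 17.4-fold lower against the floor. Day 0 values of these genes were 0 in part of the cells, so the days overlapped.

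Further genes lower at day 14 were named by rank. Mt2 (chromosome 8, 94172664 to 94173568) had a median of 934 CPM and a highest value of 4249 CPM at day 0, and a median of 0 and a highest value of 1953 CPM at day 14. Its sum was 6.67-fold (4.74 to 9.58) lower, while other cells stood at 1.02. Hspa1a, the inducible heat shock gene with the near-identical copy Hspa1b, was 19.96-fold (8.80 to 55.9) lower, with 63 of its 85 day 0 UMIs in 1 cell and all 6 day 14 UMIs in another. Without these cells it was at least 10.1-fold lower against the floor. In the unfolded protein response list 2 of 10 genes were lower, Ddit3 and Ppp1r15a, and none higher, against 10.3% of all genes lower. Hist1h2bc, a histone gene, was 9.30-fold (4.75 to 20.3) lower and 18.5-fold without the top cell of each day. Lgals3, the galectin-3 gene, was 13.7-fold (4.96 to 52.9) lower, from 39 UMIs in 5 cells to 4 in 3. Procr, a receptor gene for protein C, went from 23 UMIs to 2 and was 16.2-fold (4.004 to 142) lower.

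Among surface, amino acid supply and homing genes a minority was lower. Of 16 measured surface and survival receptors 3 were lower and none higher, against 10.3% of all genes lower. Sdc1 had per-cell medians of 1069 and 390 CPM and was 2.09-fold (1.61 to 2.71) lower, and stood at 0.572 in other cells. Ly6c2 was 3.15-fold (2.71 to 3.67) lower, and at 0.125 in other cells. Bst2, the antiviral tether gene tetherin, had medians of 2189 and 773 CPM and was 3.47-fold (2.86 to 4.23) lower, whereas other cells stood at 1.30. Tnfrsf17 (1.47-fold, 1.10 to 1.95) and Ccr10 (1.23-fold, 0.930 to 1.63) were less than 2-fold lower. Of 17 amino acid supply genes 4 were lower, Slc3a2, Slc7a5, Asns and Mars, and none higher, against the same 10.3%. Slc3a2, the heavy chain gene of the amino acid transporter that Slc7a5 completes, had medians of 1188 and 326 CPM and was 4.98-fold (3.85 to 6.50) lower, against 0.883 in other cells. The list medians of the surface (-0.42) and amino acid (-0.31) genes turned positive, at 0.06 and 0.17, where immunoglobulin UMIs stayed in the total. Of 9 homing genes 2 were lower, against 10.3% of all genes, Itgb7, the integrin chain of gut homing, and Cd69. Tmem176a and Tmem176b were 4.59-fold (3.63 to 5.86) and 4.53-fold (3.69 to 5.59) lower.

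MHC class II genes, low in plasma cells already, stood lower still at day 14. All 7 measured genes were below 1, with 2 over 2-fold lower (H2-DMb2 and H2-Ob), against 10.3% of all genes, and the median log2 ratio was -0.97 in plasma cells and -0.14 in other cells. Cd74 had per-cell medians of 13151 and 6628 CPM and was 1.95-fold (1.82 to 2.09) lower, against 0.954 in other cells. Its ranges, 1267 to 29559 and 1761 to 22301 CPM, overlapped.

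The summed interferon-gamma-associated list stood at 0.699 (0.612 to 0.798) of its day 0 level in plasma cells and at 1.52 in other cells. Serpina3g, an interferon-gamma-induced protease inhibitor gene, went from 31 UMIs in 13 plasma cells to 10 in 7 and was 4.37-fold (2.09 to 9.99) lower, while in other cells it was 5.30-fold (4.40 to 6.43) higher. Cxcl10 went from 114 UMIs in 14 cells to 18 in 5 and was 8.92-fold (5.40 to 15.6) lower. Without Cxcl10 the summed list stood at 0.896 (0.775 to 1.04) in plasma cells and 1.52 in other cells. In plasma cells 2 of 9 measured genes of the list were lower, against 10.3% of all genes, and none was higher, and the median log2 ratio was -0.21, against 0.54 in other cells. This plasma cell median turned to 0.02 with median-of-ratios factors and 0.27 where immunoglobulin UMIs stayed in the total. The summed type I interferon list stood at 0.606 (0.533 to 0.688) in plasma cells and at 1.30 in other cells. This sum rests on Bst2, which went from 367 to 149 UMIs. Without it the list stood at 1.31 (1.08 to 1.59) in plasma cells and 1.30 in other cells. The median gene of the list stood at 0.60 (log2) in plasma cells and 0.49 in other cells, and Ifitm3, which encodes an antiviral membrane protein, was 3.42-fold (1.77 to 7.26) higher. Of the 6 measured genes of the list 5 stood above 1 in plasma cells. The difference between plasma cells and other cells was not tested.

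**Figure D5:**
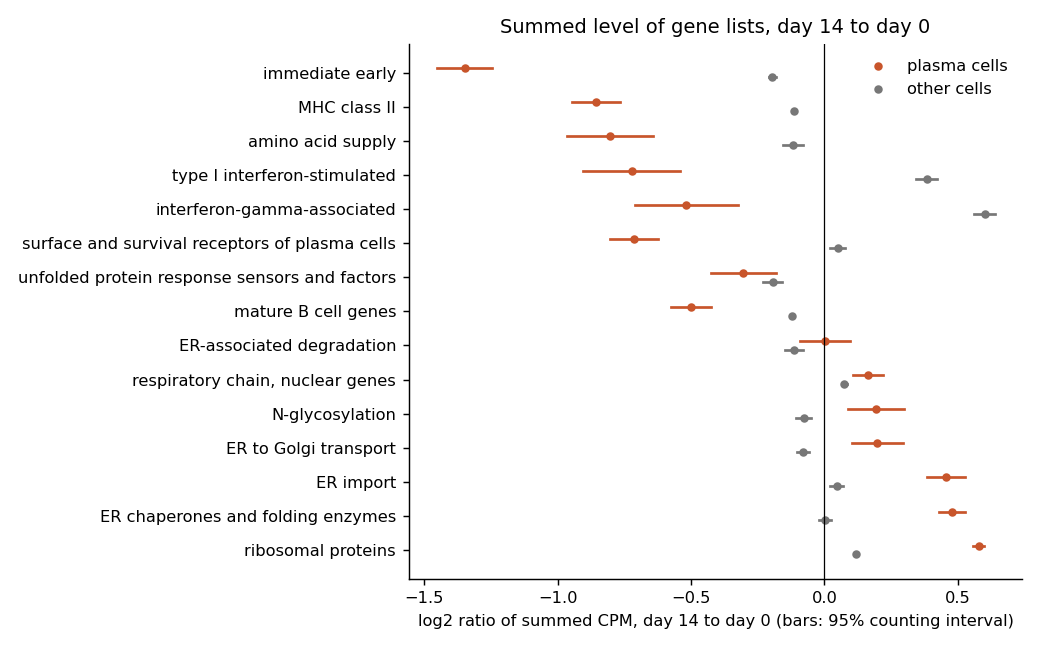
Log2 ratio of the summed level at day 14 to day 0 (x axis) of 15 gene lists (rows) in plasma cells and in other cells, with bars for 95% counting intervals. Immediate early, MHC class II and both interferon lists lie below 0 in plasma cells, ER import, chaperones and ribosomal proteins above 0, and the interferon lists lie above 0 in other cells. Without Bst2 the type I list lies above 0 in plasma cells too (a ratio of 1.31).

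Of 10 measured plasma cell transcription factors 1 was higher and 3 lower by day, against 5.13% and 10.3% of all genes. Bhlhe41 was higher, 2.03-fold (0.824 to 5.68) on 7 and 20 UMIs, and Irf4, Klf6 and Bhlhe40 were lower. Irf4 went from 20 UMIs to 7, or 4.03-fold (1.64 to 11.3) lower. Klf6 was 2.62-fold (1.88 to 3.68) lower and 6.06-fold without the top cell of each day, since 37 of its 57 day 14 UMIs lay in 1 cell. Bcl2, the survival gene, went from 16 UMIs to 4 and was 5.64-fold (1.82 to 23.2) lower, while Mcl1, on which plasma cells depend, stood at 0.657 (0.459 to 0.940) of its day 0 level. Within IgA cells alone 107 genes (5.67% of those measured) were higher and 203 (10.8%) lower. Of these, 65 and 161 were among the 116 and 232.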

How the data were processed

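The deposited matrices hold UMI counts by Cell Ranger 3.0.1, per the file headers. Build mm10 and Seurat 3.0 are named per the submitters' processing notes, and the sources used here give no other settings. The deposited natural log tables hold ln(1 + counts × 10000 / total), and 658000 of 658000 day 0 and 938400 of 938400 day 14 values of 200 genes matched the counts within a relative tolerance of 0.001. They served only to define the 3290 and 4692 cells. They leave out 86 and 88 barcodes.

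Counts of 393 immunoglobulin genes gave each cell's share. Counts were summed per library over plasma cells (144153 and 203124 UMIs without immunoglobulin and 13 mitochondrial genes) and over other cells. Ratios have exact conditional and shares exact Clopper-Pearson 95% intervals. Sums of 0 took a floor of 3 counts in each library. Doublets were not called. Genes were named by the counting bound nearest to 1: against other cells the 15 highest and 10 lowest, by day 8 each way, and besides these members of 29 gene lists. Immunoglobulin, mitochondrial, ribosomal protein and predicted genes were left out of this choice. Members and lists were chosen with earlier results of these data known. Positions come from GENCODE M21, where 30934 of 31053 gene IDs (99.6%) were found. Alternatives were other immunoglobulin shares, filters, folds and scalings (TMM factors from edgeR 4.0.16 in R 4.3.3). Python 3.11.15, numpy 2.4.6 and SciPy 1.17.1 were used. The code for the ratios was run on simulated Poisson counts without spread between cells or libraries. That run checks the code and cannot show how well the intervals cover these data.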

Additional observations from a re-analysis of the deposited data

Results flagged for a closer look

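Hspa1a stood at 0.0501 of its day 0 level in plasma cells at day 14 and at 1.44 in other cells, opposite directions whose counting intervals both exclude 1. In plasma cells 63 of the 85 day 0 UMIs lay in 1 cell and all 6 day 14 UMIs in another. The summed interferon-gamma-associated list stood at 0.699 in plasma cells and at 1.52 in other cells, and the summed type I interferon list at 0.606 and 1.30. The type I difference rests on Bst2 (367 to 149 UMIs in plasma cells): without it the list stood at 1.31 and 1.30, and 5 of 6 measured genes were above 1 in plasma cells, with a median log2 ratio of 0.60. Without Cxcl10 (114 to 18 UMIs) the interferon-gamma list stood at 0.896 (0.775 to 1.04) in plasma cells and 1.52 in other cells. With 1 library per day none of the 3 differences was tested.

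At day 0, 4 barcodes that the natural log table leaves out had an immunoglobulin share of 20% or more. They held 847 to 1615 UMIs and 213 to 290 genes, with 15.5% to 23.5% of UMIs from mitochondrial genes, and were not counted as plasma cells. No left-out barcode of day 14 reached that share.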

How the results depend on the processing

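The share of cells, the share of IgA and the numbers of genes were recomputed under each alternative. Among cells at 40% immunoglobulin or more 71 genes were higher at day 14, and at 50% or more 55, with a day 14 share of 0.213%. The filters change how many genes are measured, so shares of the genes measured are given in parentheses. Against other cells the mean CPM filter gave 546 higher (22.2%) and 248 lower (10.1%) at 50. It gave 184 (28.1%) and 58 (8.87%) at 200, and 3753 (25.9%) and 618 (4.26%) without a filter. A fold of 1.5 gave 226 lower and a fold of 3 gave 213 higher and 65 lower. TMM factors gave 233 lower (17.9%), median-of-ratios factors 211 lower (16.3%), and CPM over all UMIs 69 higher (8.36%) and 378 lower (45.8%). By day the UMI filter gave 291 higher (7.72%) and 542 lower (14.4%) at 10. It gave 35 (3.55%) and 94 (9.52%) at 50, and 601 (6.34%) and 996 (10.5%) without one. A fold of 1.5 gave 377 and 503 and a fold of 3 gave 22 and 74. Median-of-ratios factors gave 226 and 146, and CPM over all UMIs 423 and 89. Of list medians at 2-fold or more, those of plasma cell transcription factors (-0.23) and homing genes (-0.13) at day 0 reversed with CPM over all UMIs. Plasma cells' immunoglobulin is part of that total. Smaller list medians also changed sign under that scaling. Among them were homing (-0.24) and cell survival (-0.08) at day 14, immediate early genes (-0.98) at day 0, and type I interferon genes (-1.16 and -0.51) on both days. Filters, folds and exclusions that removed no cell cannot change a gene's ratio. Under the other alternatives 163 of 170 values of named genes by day kept direction and side of 2-fold and 7 fell under it: Slpi with 40% (log2 0.05), 50% (0.94), IgA cells only (0.44) or no top cell (0.73), and Fkbp11, Mzb1 and Ssr2 at 50%. All 250 such values against other cells kept both. The genes of both comparisons were named for the most extreme bounds in these data, so this was likely beforehand and says little of other genes. Without Bst2 the summed type I interferon list by day reversed in plasma cells, to 1.31. This, the sums without Cxcl10, Slpi without the top other cell, the 50% share, IgA cells only and leaving out the 2 Apoe-rich cells were chosen after seeing the data. Leaving out cells rich in mature B cell genes or above 2 times the median UMIs removed no plasma cell. Leaving out a library leaves no day comparison, and the values against other cells are given by library. No paired analysis was possible because each group has 1 library and the labels give no replicate numbers. With 24 and 27 cells, and genes of 20 UMIs in all, differences under about 2-fold are often within counting error.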

Other observations

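The cell cycle list summed to 192 UMIs at day 0 and 400 at day 14, 1.48 times the day 0 level (1.24 to 1.77), while other cells stood at 0.907. At day 14, 2 cells held 85 and 68 of the 400, and the median plasma cell held 7.5 UMIs at day 0 and 6 at day 14. Mki67, a marker of dividing cells, was found in 1 of 24 plasma cells at day 0 and in 6 of 27 at day 14. Of 5 measured genes of the list Hmgb2 was over 2-fold higher and Tubb5 over 2-fold lower, against 5.13% and 10.3% of all genes.

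Cd24a, a surface glycoprotein gene of immature and germinal center B cells, was 2.45-fold (1.76 to 3.46) higher in plasma cells at day 14, from 47 UMIs in 16 of 24 cells to 162 in 24 of 27, while other cells stood at 0.814. Cd83, an activation marker gene, was 5.58-fold (3.53 to 9.13) lower and Cd55, a complement regulator gene, 3.07-fold (1.68 to 5.81) lower.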
